A study of Mus musculus with 2 samples.

Results

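The 7 genes described here are the miRNA hairpins best known from epithelia: Mir200a, Mir200b and Mir429 on chromosome 4, Mir200c and Mir141 on chromosome 6, which together form the miR-200 family, and Mir203 and Mir205. They were taken by name from 1973 annotated miRNA genes. Their levels were measured by small RNA sequencing in 2 libraries of forebrain from B6NCrl mouse embryos at embryonic day 14.5, with no added allele, agent or second condition. The labels call each library a single forebrain and name different collection days, but also give the sex as pooled and the same donor for both, which was not resolved. The spread between the libraries may therefore be partly technical, and no comparison between conditions was possible.

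miRNAs are short RNAs that are cut from a hairpin in a longer transcript and that repress mRNAs paired with their seed, bases 2 to 8 counted from the 5′ end. The miR-200 family keeps cells epithelial by repressing Zeb1 and Zeb2, transcription factors that switch off E-cadherin and that in turn repress the miR-200 genes. Mir203 and Mir205 are abundant in skin and other stratified epithelia, where miR-203 represses the progenitor factor p63. In the developing head, miR-200 miRNAs are known from the olfactory epithelium and the surface ectoderm. The mRNA targets were not measured here, so the data concern the miRNAs alone.

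The mature sequences are shown because they split the family by seed and show how alike its members are. They come from RefSeq on GRCm38.p6 for the arm usually taken as the active one, 5′ to 3′, with the seed in capitals. All 7 genes matched by symbol, and all 7 hairpins had the same position as in the GENCODE annotation.
miR-200b-3p: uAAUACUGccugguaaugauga
miR-200c-3p: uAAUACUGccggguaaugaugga
miR-429-3p: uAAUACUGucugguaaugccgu
miR-200a-3p: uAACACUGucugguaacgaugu
miR-141-3p: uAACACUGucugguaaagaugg
miR-203-3p: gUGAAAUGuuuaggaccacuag
miR-205-5p: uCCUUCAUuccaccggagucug

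The first 3 sequences shared the seed AAUACUG, and the next 2 shared AACACUG. The groups differed in the seed by a single base, C4U between miR-200a-3p and miR-200b-3p, counted from 1 at the 5′ end. Outside the seed, miR-200b-3p and miR-200c-3p differed at 2 of 22 bases, as did miR-200a-3p and miR-141-3p. miR-429-3p and miR-200b-3p differed at 4 bases. No other gene in the RefSeq table had a mature miRNA with any of these 4 seeds, with bases 2 to 8 or 2 to 7. The hairpins were still distinct: the longest stretch that any miR-200 hairpin had in common with another RefSeq hairpin was the 17 nt shared by Mir200a and Mir141. This is shorter than any of the mature sequences above, and only reads that matched a single place entered the gene counts.

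All 7 genes were detected, defined as 10 or more counts in both libraries, against 399 (20.2%) of the 1973 genes. Levels are given as CPM, which is counts per 1000000 of the miRNA gene counts in a library. There were 7946585 such counts in replicate 2 and 7080317 in replicate 1, so 1 count was worth 0.126 and 0.141 CPM. The 7 genes together held 17058 counts in replicate 2 and 11441 in replicate 1, or 0.188% ± 0.0375 of the miRNA counts (SD, n = 2). Of the marker miRNAs of neural cells, 17 of 18 neuronal genes and all 3 neural progenitor genes in the tables were detected. Detection does not test the forebrain label, since all 7 choroid plexus or ciliated genes and all 3 erythroid genes were detected as well. The neuronal genes summed to 15031 CPM in replicate 2 and to 15673 CPM in replicate 1, and the progenitor genes to 3348 and 4045 CPM. Both sums leave out reads that matched several places, so miRNAs with several gene copies may be undercounted in them. In whole tissue, the number of cells of a type and the RNA per cell cannot be told apart.

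Mir203 was the highest of the 7. It had 10876 counts in replicate 2 and 8628 in replicate 1, which is 1369 and 1219 CPM, and averaged 1294 ± 106 CPM (SD, n = 2). That placed it at rank 79 of all miRNA genes, between Mir425 and Mir101b. Ranks and shares of the miRNA counts rest on reads that matched a single place. Genes with several copies may therefore rank too low. Mir203 supplied 63.8% of the counts of the 7 genes in replicate 2 and 75.4% in replicate 1. The gene (ENSMUSG00000065574.1) lies on mm10 at chr12:112130880-112130955 on the plus strand, and no GENCODE M21 gene overlaps it. Its hairpin is shown with both annotated arms in capitals, since a gene count covers the whole hairpin and does not separate the arms.
Mir203 hairpin: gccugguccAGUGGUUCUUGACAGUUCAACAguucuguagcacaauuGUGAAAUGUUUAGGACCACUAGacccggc

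Mir205, the other miRNA of stratified epithelia, was far lower. It had 211 counts in replicate 2 and 218 in replicate 1, which is 26.6 and 30.8 CPM, and averaged 28.7 ± 3.0 CPM (SD, n = 2; rank 254). Mir205 (ENSMUSG00000065533.1) lies at chr1:193507463-193507530 on the minus strand, in an exon of the long non-coding RNA gene 4631405K08Rik. Mir203 and Mir205 thus stood well apart in CPM, a measure of reads, although both are known from the same epithelia. Each varied little between the libraries, with coefficients of variation of 8.20% and 10.5%.

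**Figure D1:**
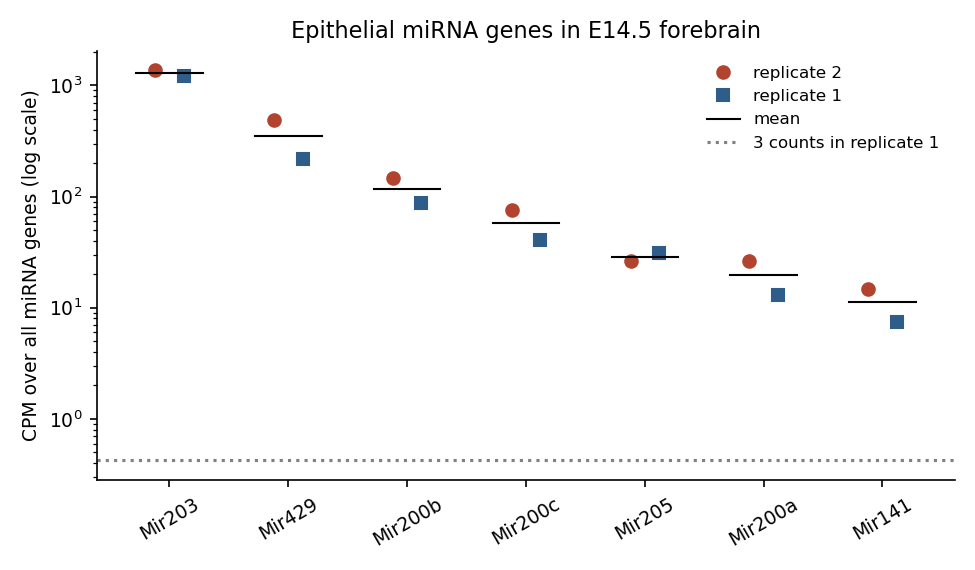
CPM on a log scale of the 7 genes, ordered by mean level, with replicate 2 as circles, replicate 1 as squares, the mean as a bar and the level of 3 counts in replicate 1 as a dotted line. Replicate 2 lies above replicate 1 for Mir203 and for all 5 miR-200 genes, and below it for Mir205.

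Within the miR-200 family, Mir429 was the most abundant. It had 3861 counts in replicate 2 and 1541 in replicate 1, which is 486 and 218 CPM, and averaged 352 ± 190 CPM (SD, n = 2; rank 123). Mir200b followed with 1178 and 621 counts, 148 and 87.7 CPM, and a mean of 118 ± 42.8 CPM (rank 182). Mir200a, whose product carries the other seed, was the lowest of the chromosome 4 genes with 208 and 93 counts, 26.2 and 13.1 CPM, and a mean of 19.7 ± 9.22 CPM (rank 268). All 3 were higher in replicate 2, and their order was the same in both libraries.

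These 3 genes lie on the minus strand within 1846 nt and are known to come from a common primary transcript. In the direction of transcription they are Mir200b (ENSMUSG00000065549.2, chr4:156055681-156055750), Mir200a (ENSMUSG00000065400.1, chr4:156054896-156054985) and Mir429 (ENSMUSG00000065427.1, chr4:156053905-156053987). The gaps between the hairpins were 695 and 908 nt. All 3 lie in an intron of Ttll10, a gene of the tubulin tyrosine ligase-like family, on the same strand. They also lie within the non-coding gene Gm13648, where Mir429 falls in an exon and the others in an intron.

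On chromosome 6, Mir200c had 606 counts in replicate 2 and 287 in replicate 1, which is 76.3 and 40.5 CPM, and averaged 58.4 ± 25.3 CPM (SD, n = 2; rank 220). Mir141 had 118 and 53 counts, 14.8 and 7.49 CPM, and a mean of 11.2 ± 5.21 CPM (rank 286), the lowest of the 7. Both were higher in replicate 2. Mir200c (ENSMUSG00000065462.2, chr6:124718322-124718390) and Mir141 (ENSMUSG00000065474.1, chr6:124717914-124717985) are 336 nt apart on the minus strand and lie in introns of Gm15884, an antisense non-coding gene read in their direction. The 3′ end of the Mir141 hairpin also overlaps an exon of the gene model Gm29008.

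**Figure D2:**
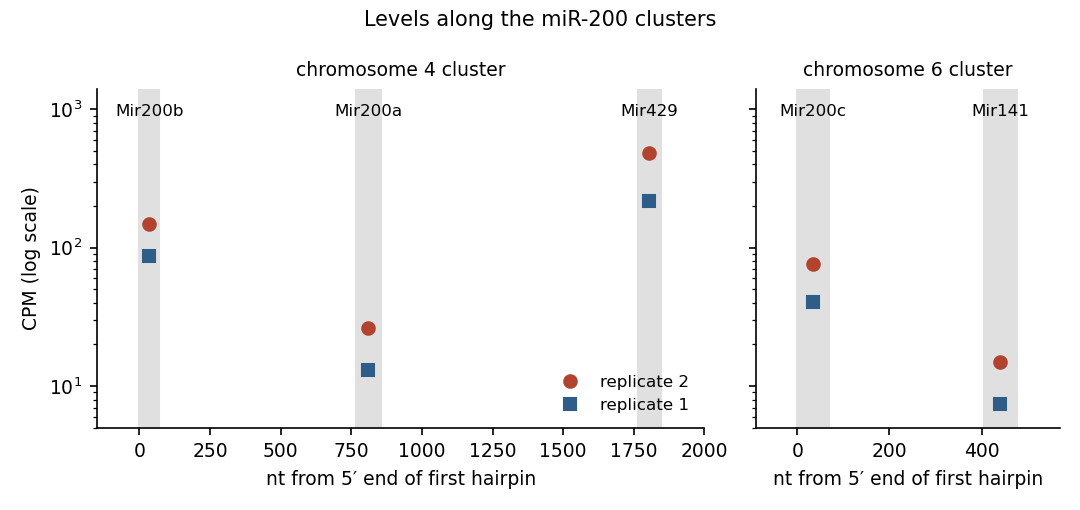
CPM on a log scale of the miR-200 hairpins by distance in nt from the 5′ end of the first hairpin of each cluster, in the direction of transcription, with hairpins as grey bands. Mir429, the last hairpin on chromosome 4, is the highest, the middle hairpin Mir200a is the lowest there, and on chromosome 6 the second hairpin, Mir141, is the lower.

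Neighbours in a cluster differed several-fold in counts, and these ratios of counts within a library do not depend on scaling. How closely the counts of different miRNA sequences follow their true amounts was not tested, so these are ratios of reads. Intervals in brackets are 95% exact (Clopper-Pearson) intervals, which cover counting error only. Mir429 had 18.6 counts per Mir200a count in replicate 2 (16.1 to 21.4) and 16.6 in replicate 1 (13.4 to 20.7). Mir200b had 5.66 counts per Mir200a count in replicate 2 (4.88 to 6.59) and 6.68 in replicate 1 (5.36 to 8.40). Mir200c had 5.14 counts per Mir141 count in replicate 2 (4.21 to 6.31) and 5.42 in replicate 1 (4.03 to 7.40). For these 3 pairs the intervals of the libraries overlapped. They did not for Mir429 over Mir200b, which was 3.28 in replicate 2 (3.07 to 3.50) and 2.48 in replicate 1 (2.26 to 2.73).

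In both clusters the hairpin with the AACACUG seed was the lower by count. Genes with the AAUACUG seed summed to 5645 counts in replicate 2 and 2449 in replicate 1, and those with the AACACUG seed to 326 and 146. The ratio of the groups was 17.3 in replicate 2 (15.5 to 19.4) and 16.8 in replicate 1 (14.2 to 19.96). The balance of these groups of genes thus did not differ beyond counting error. Balance of the seeds themselves was not measured, since a hairpin count can also hold reads of the other arm, which has another seed. The balance of the clusters was 7.25 counts on chromosome 4 per count on chromosome 6 in replicate 2 (6.70 to 7.84) and 6.63 in replicate 1 (5.92 to 7.46), again with overlapping intervals. Mir429 made up 64.7% of the miR-200 counts in replicate 2 (63.4 to 65.9) and 59.4% in replicate 1 (57.5 to 61.3). Mir200b made up 19.7% in replicate 2 (18.7 to 20.8) and 23.9% in replicate 1 (22.3 to 25.6). These are the only 2 of the 5 genes whose intervals did not overlap.

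**Figure D3:**
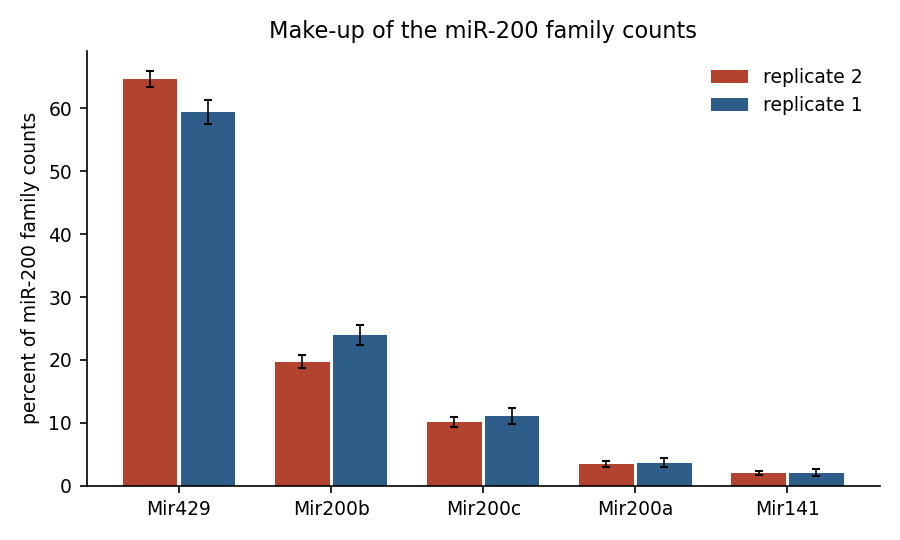
Percent of the miR-200 family counts held by each of the 5 genes, with replicate 2 as the left and replicate 1 as the right bar of each pair and 95% exact counting intervals as error bars. Mir429 takes 64.7% in replicate 2 and 59.4% in replicate 1, and the shares of Mir200c, Mir200a and Mir141 overlap between the libraries.

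The order of mean levels was Mir203, Mir429, Mir200b, Mir200c, Mir205, Mir200a and Mir141, and it held in each library. Dividing by hairpin length, which runs from 68 to 90 nt, left this order of mean CPM per nt unchanged. Of the neighbours in this order, Mir200a and Mir141 overlapped in CPM across the libraries (13.1 to 26.2 and 7.49 to 14.8). Mir205 and Mir200a had 211 and 208 counts in replicate 2, a ratio of 1.01 (0.834 to 1.23), and so did not differ there. In replicate 1 that ratio was 2.34 (1.83 to 3.02). The other neighbours in the order did not overlap across the libraries.

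The difference between the libraries ran through the whole miR-200 family and was much smaller for Mir203. The 5 miR-200 genes summed to 5971 counts in replicate 2 and 2595 in replicate 1, which is 751 and 367 CPM, a ratio of 2.05 (1.96 to 2.15). The ratio was 2.07 for the chromosome 4 cluster (1.97 to 2.18) and 1.90 for the chromosome 6 cluster (1.67 to 2.16). By gene it was 2.23 for Mir429 (2.10 to 2.37), 1.99 for Mir200a (1.55 to 2.57), 1.98 for Mir141 (1.42 to 2.80), 1.88 for Mir200c (1.63 to 2.17) and 1.69 for Mir200b (1.53 to 1.87). Mir203 had a ratio of 1.12 (1.09 to 1.16) and Mir205 one of 0.862 (0.710 to 1.05). Mir203 counts per Mir429 count, which no scaling affects, were 2.82 in replicate 2 (2.72 to 2.92) and 5.60 in replicate 1 (5.30 to 5.91).

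For every one of the 737 genes with a count in either library, its counts and those of all other miRNA genes were set against each other in Fisher's exact test (two-sided), and p-values were adjusted by the Benjamini-Hochberg method. With 1 library on each side the test speaks of these libraries, not of conditions, and takes in no error other than counting. At an adjusted p below 0.05 and any fold, 9.36% of all tested genes were higher in replicate 2 and 17.0% were lower. Only 399 of the 737 were detected, and genes with few counts can hardly pass, which lowers such shares. Of the 7 genes, 6 were called higher and none lower. Fisher's exact test gave Mir429 an adjusted p of 5.43e-170, Mir200b one of 3.70e-26, Mir200c one of 9.66e-19, Mir203 one of 5.49e-15, Mir200a one of 7.12e-08 and Mir141 one of 0.000111. Mir205 did not pass (adjusted p = 0.343, Fisher's exact test). With a minimum of 2-fold, 0.678% of tested genes were called higher in replicate 2, and of the 7 only Mir429 was. Mir200a and Mir141 were just under that limit.

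The 2-fold count depends on scaling. With TMM factors, with totals that leave out Mir99a (the most abundant miRNA gene) and with totals of all reads, it was 3 genes, Mir429, Mir200a and Mir141. With median-of-ratios factors it was 4, with Mir200c added, and the ratios then ran from 1.82 to 2.41 for the family. Those factors moved the median log2 ratio of all detected genes by 0.11. The 6 calls without a fold minimum held under each of these scalings. The split of all such calls, 69 higher and 125 lower in replicate 2, became 85 and 96 with TMM and 99 and 88 with median-of-ratios factors. For calls of at least 2-fold it was 5 and 6, against 8 and 5 with TMM, 11 and 5 with median-of-ratios factors, 8 and 5 without Mir99a, and 8 and 6 with all reads.

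The spread of other genes gives the scale of these differences. Across the 399 detected genes the libraries lay a median of 1.17-fold apart, and 90.0% of the genes were within 1.5-fold. The median log2 ratio was -0.09 over all detected genes, 37.8% of which were higher in replicate 2, against 0.91 over the 7 genes, 6 of which were higher. A ratio of at least 1.5 toward replicate 2 was seen in 16 detected genes (4.01%), and 5 of these were the miR-200 genes. Neighbours in a miR-200 cluster are not independent of each other. The miR-200 genes took ranks 3, 4, 5, 7 and 9 of 399 by ratio, while Mir203 was at rank 91 and Mir205 at rank 259. Among the 192 detected genes at a mean of 100 CPM or more, 4 had such a ratio: Mir429, Mir200b, Mir183 and Mir128-1.

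**Figure D4:**
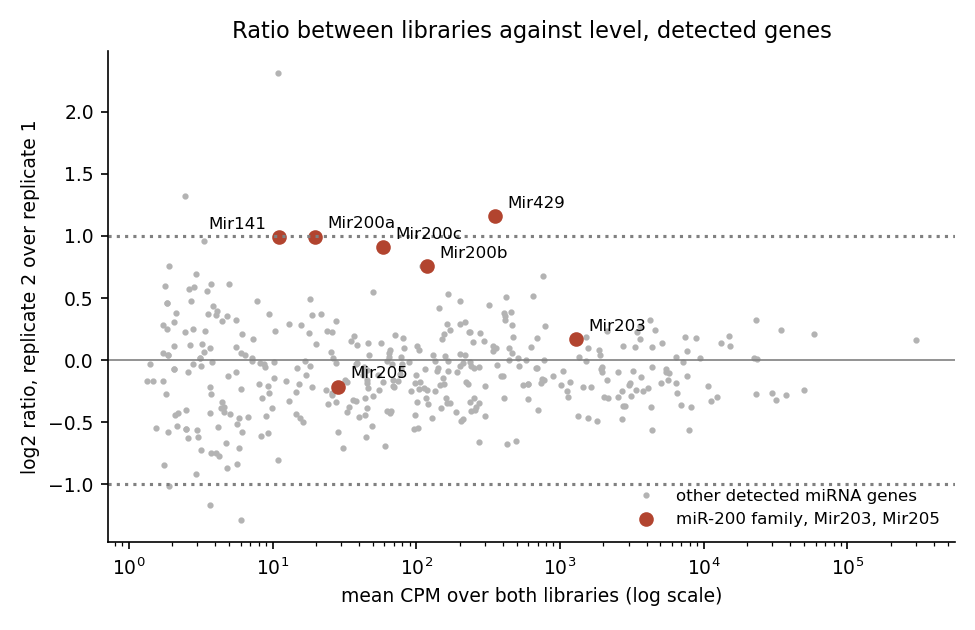
Log2 ratio of replicate 2 over replicate 1 against mean CPM (log scale) for the 399 detected genes, with dotted lines at 2-fold. The 5 miR-200 genes lie between 0.76 and 1.16, above nearly all other genes of like level, with Mir203 at 0.17 and Mir205 at -0.21 inside the main cloud.

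The detected genes with a ratio nearest to that of the summed miR-200 genes were Mir1927, Mir378c, Mir183, Mir6951 and Mir1188, over 2 libraries only. Mir183, of the sensory cluster that is expressed in hair cells, photoreceptors and olfactory neurons, had 1096 counts in replicate 2 and 579 in replicate 1, a ratio of 1.69 (adjusted p = 3.14e-24, Fisher's exact test). The others had at most 35 counts in a library and did not pass. In level, the closest genes were Mir188, Mir425, Mir101b and Mir15b around Mir203, Mir27b, Mir341, Mir101a and Mirlet7c-1 around Mir429, and Mir670, Mir1264, Mir148a and Mir874 around Mir200b. Around Mir200c they were Mir30c-1, Mir31, Mir192 and Mir103-2, and around Mir205 they were Mir18b, Mir3093, Mir196b and Mir493. Mir200a lay among Mir3080, Mir212, Mir3072 and Mir8112, and Mir141 among Gm23935, Mir1247, Mir144 and Mir669e. The ratios of all these neighbours except Mir144 lay between 0.573 and 1.29, below that of every miR-200 gene.

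Markers of other tissues that a forebrain dissection could hold were set beside these values. The sensory list had 3 of 3 genes higher in replicate 2, of which 2 passed Fisher's exact test, with sums of 355 CPM in replicate 2 and 263 CPM in replicate 1. Its leading gene, Mir182, had 181 and 147 CPM. The erythroid list also had 3 of 3 genes higher, of which 2 passed, with sums of 543 and 406 CPM. There Mir451a, the main miRNA of red cells, had 518 and 396 CPM, and Mir144, from the same primary transcript, had 145 and 26 counts, a ratio of 4.97. The gland and gut list had 2 of 3 detected genes higher in replicate 2, with sums of 357 and 322 CPM. Its Mir375 of endocrine cells passed as higher at 242 and 196 CPM, and Mir194-2 of intestine passed as lower at 53.5 and 71.2 CPM. Mir192 was higher at 59.3 and 53.8 CPM and passed only with median-of-ratios factors. Mir215 and Mir194-1 of that list had 10 counts or fewer in each library.

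The choroid plexus and ciliated list had 7 of 7 genes lower in replicate 2, of which 4 passed, with sums of 6668 CPM in replicate 2 and 8077 CPM in replicate 1. With TMM or median-of-ratios factors 5 of the 7 were lower and 3 passed, while Mir204 and Mir211 were higher without passing, and in totals without Mir99a 6 were lower and Mir211 higher. Its Mir449a, of multiciliated cells, had 3714 and 4823 CPM, and Mir204, of choroid plexus and pigment epithelium, had 1888 and 1983 CPM. The endothelial Mir126a had 22365 and 22103 CPM, a ratio of 1.01 that passed the test. The mural and stromal list had 4109 and 3690 CPM, a ratio of 1.11, most of it Mir143 of smooth muscle, which passed, at 3825 and 3400 CPM. Its Mir214 had 135 CPM in both. In that list 2 of 5 detected genes were higher in replicate 2, against 5 with TMM or median-of-ratios factors. The immune list had 217 and 208 CPM, with 3 of 4 genes higher and none passing, though Mir223 passed under TMM, median-of-ratios factors and totals without Mir99a. It held Mir223 of myeloid cells at 86.1 and 76.0 CPM and Mir155 of activated lymphocytes at 65.1 and 72.9 CPM. Mir206 of striated muscle had 13.6 and 19.2 CPM and passed as lower in replicate 2. It did not pass with TMM factors, median-of-ratios factors or totals without Mir99a. Mir133b had 3 and 5 counts, with Mir1a-1, Mir133a-1 and Mir133a-2 at 0 counts in both. The hepatocyte Mir122 had 10.2 and 10.3 CPM, which did not differ beyond counting error, and its direction turned with scaling.

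The neuronal list had 6 of 17 detected genes higher in replicate 2, with a median log2 ratio of -0.13. By Fisher's exact test 3 of its genes were higher in replicate 2 (Mir128-1, Mir128-2 and Mir132) and 6 were lower, against 3 and 3 with median-of-ratios factors. Its leading genes Mir137 and Mir7b were at 7274 and 2002 CPM in replicate 2, and at 7955 and 2238 CPM in replicate 1. Of the progenitor list, Mir92b had 2786 and 3407 CPM and Mir9-3 had 556 and 634 CPM, and both passed as lower in replicate 2. Mir9-2, the only other detected gene of that list, was higher there at 6.04 and 3.95 CPM, without passing. Multi-copy genes among these lists, such as Mir9-3, Mir194-2, Mir1a-1, Mir133a-1 and Mir133a-2, lack the reads that matched several places. Few or no counts at such a gene therefore need not mean that its miRNA was absent. The part of any of these tissues in the miR-200 difference was not tested. The libraries also differ in collection day, whose part in the difference cannot be told apart.

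**Figure D5:**
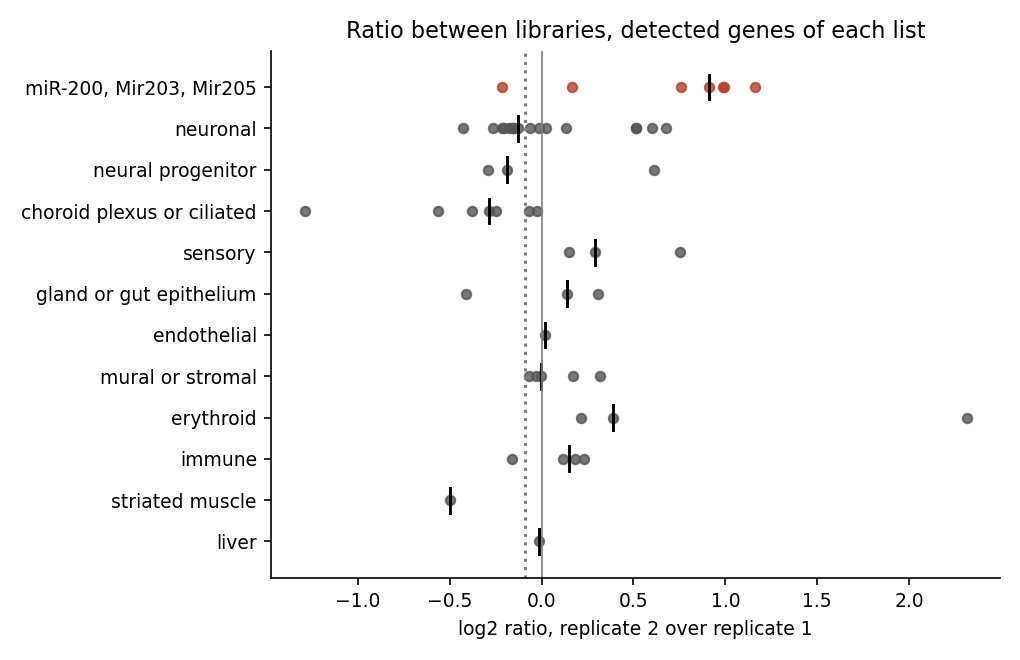
Log2 ratio of replicate 2 over replicate 1 for each detected gene of the 7 epithelial genes and of 11 marker lists, with list medians as black bars and the median of all detected genes as a dotted line. The median is 0.91 for the epithelial genes, 0.39 for the erythroid and 0.29 for the sensory list, and -0.29 for the choroid plexus and ciliated list.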

How the data were processed

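Small RNA from 2 forebrain libraries of 1 group was analysed from the deposited tables of raw counts per miRNA gene, 1 table per library with 3 count columns (either strand, strand of the gene, opposite strand). The authors derived these counts from 1 alignment file per library on mm10 with GENCODE M4, per the file notes deposited beside them. Aligner, counter and settings: not given in the sources used here. Rows that name no gene (unmapped, multi-mapping, unannotated and ambiguous reads) held 61.7% ± 0.308 of the reads (SD, n = 2), 42.7% ± 0.822 being multi-mapping reads, and were left out of totals and tests. Libraries had 20638071 reads in replicate 2 and 18598385 in replicate 1.

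The column for the strand of the gene was used and scaled to CPM. Of the 1973 IDs, 1894 were named through GENCODE M21 (also mm10). Sequences came from RefSeq (GRCm38.p6). Over detected genes the libraries differed by more than sampling noise (chi-square 90835, 398 degrees of freedom), which bears only on whether the same counts were deposited in duplicate, not on whether the libraries come from separate embryos. They were taken as 2 samples from the labels. Fisher's exact test (scipy 1.17.1) was run on every gene with a count, after being checked on simulated counts. Those counts varied by counting error alone, so the check does not cover false calls from other variation between the libraries. TMM and median-of-ratios factors came from edgeR 4.0.16. The members, marker lists and tests were chosen with earlier results of these data known. Besides the 7 genes, the text names the 2 detected genes next above and next below each in level, the 5 nearest to the family in ratio, and the 2 highest of each marker list; the rule also covered genes that share a seed, of which there were none. Mir194-1, Mir215, Mir9-2, Mir128-1, Mir128-2, Mir132, Mir211, Mir99a, Mir3074-1, Mir1a-1, Mir133a-1 and Mir133a-2 were named after their values were seen. Mir9-1, Mir142 and Mir1a-2 of the marker lists were not analysed here. Mature miRNAs were assigned to hairpins without separating arms. The tables hold read counts with no molecular identifiers, so intervals cover counting error only.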

Additional observations from a re-analysis of the deposited data

Results flagged for a closer look

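Opposite-strand counts at Mir203 were looked at because no main value uses them and they lay far above the 3 counts that a count of 0 allows. There were 125 in replicate 2 and 165 in replicate 1, which is 15.7 and 23.3 CPM over the same totals. They made up 1.14% of the Mir203 counts on either strand in replicate 2 (95% Clopper-Pearson interval 0.947 to 1.35) and 1.88% in replicate 1 (1.60 to 2.18). The intervals did not overlap, and the counts were lower in replicate 2 while those on the strand of the gene were higher. The other 6 genes had at most 1 opposite-strand count in a library. Among the 172 genes with 1000 or more counts in both libraries, the median opposite-strand share was 0%, and Mir203 had the second highest mean share, 1.51%, after Mir3074-1 with 4.17%.

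RefSeq places on the other strand a 60-nt hairpin named Gm51289, with the mature miRNAs miR-203b-5p and miR-203b-3p, at chr12:112130887-112130946 on the minus strand. It is the exact reverse complement of part of the Mir203 hairpin. No gene of that name was among the genes analysed here. Whether it was counted under another ID is not known, since 79 of the 1973 IDs had no GENCODE M21 name. The mature sequences of Gm51289 are shown with bases 2 to 8 in capitals.
miR-203b-5p: aGUGGUCCuaaacauuucac
miR-203b-3p: uUGAACUGucaagaaccacugg
Their seeds differ from the UGAAAUG of miR-203-3p. The longest stretch that the Mir203 hairpin has in common with its own reverse complement is 10 nt. Whether these counts come from that hairpin was not tested, since the gene counts do not place reads within it.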

How the results depend on the processing

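The 7 genes were detected with a minimum of 10 counts or of 1 count in both libraries. The direction of every ratio of the 7 genes, and which of them passed Fisher's exact test, were the same under TMM factors, median-of-ratios factors, totals without Mir99a, totals of all reads, counts on either strand, and a test of detected genes only. The summed miR-200 ratio of 2.05 became 2.17 (TMM), 2.21 (median-of-ratios factors) and 2.15 (without Mir99a), beyond its counting interval, and that of the chromosome 4 cluster became 2.19 with TMM and 2.24 with median-of-ratios factors. Of the 7 genes, the number called at 2-fold was 1, but 3 under TMM, totals without Mir99a or totals of all reads, and 4 under median-of-ratios factors. Over all genes, 11 were called at 2-fold, 194 with no fold minimum and 5 when only detected genes were tested, which are fewer genes by construction. The share of the 7 genes was 0.188%, 0.270% without Mir99a in the totals, a smaller denominator, and 0.162% to 0.215% when either library was left out. The share of the miR-200 genes was 0.0367% to 0.0751% when either library was left out. In the same way Mir429 over Mir200b was 2.48 to 3.28, Mir200b over Mir200a 5.66 to 6.68, and Mir200c over Mir141 5.14 to 5.42. Scalings of the marker lists were added after seeing the data and are given beside those lists. Of 185 recomputed values, 159 were labelled unchanged. This meant within 1.5-fold for counts and ranks, and the same direction and test outcome for ratios of single genes. Summed ratios had to stay in their counting interval, and levels, shares and ratios of neighbours within the SD. With 2 libraries, a value from either alone lies within the SD by construction, so those labels do not speak of stability. The values that moved are given above, except counts of the choroid plexus, mural and liver lists, and the CPM of Mir200b, Mir200c, Mir203 and Mir205 without Mir99a in the totals. No paired analysis was possible because the libraries form 1 group. With 2 libraries, an SD is a coarse estimate, and a gene at 0 counts could still hold 0.378 CPM in replicate 2 and 0.424 CPM in replicate 1.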
